A study of Mus musculus with 6 samples.

Results

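The ATF4 integrated stress response genes described here were the 10 genes Atf4, Atf5, Ddit3, Trib3, Chac1, Sesn2, Ppp1r15a, Cebpg, Eif4ebp1 and Nupr1, chosen by name as the transcription factor ATF4, its partners and its classical targets. They were 10 of the 28773 gene IDs in the files. Splenic CD8+ T cells of mice were taken on day 35 for bulk RNA-seq, in 3 MWA+PBS samples (replicates 1 to 3) and 3 MWA+2DG samples (replicates 4 to 6). MWA is microwave ablation of the tumor, which both groups received, so neither group was untreated. The MWA+PBS group was then given the PBS vehicle, and the MWA+2DG group 2-deoxy-D-glucose (2DG), a form of glucose that cells take up but cannot burn and that inhibits glycolysis. By the study's methods, the injections ended some days before the cells were taken. The paper also reports that the drug was no longer detected in plasma by that time after the last injection. The values below thus describe cells sampled after dosing had ended, not during it. The question addressed here was how transcripts of the integrated stress response differed between the groups. The labels named neither the tumor, the strain nor the age of the mice, and did not say whether each sample came from a separate animal, so p-values measure the spread between these samples.

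The integrated stress response is a shared route by which amino acid shortage, haem shortage, viral RNA and misfolded protein in the endoplasmic reticulum slow protein synthesis. Sensor kinases phosphorylate the initiation factor eIF2, general translation falls, and mRNAs with upstream open reading frames, Atf4 among them, are translated more. ATF4 protein then pairs with other bZIP factors at composite C/EBP-ATF sites and raises genes for amino acid supply, redox balance and, in prolonged stress, cell death. The ATF4 step is largely translational, which RNA levels do not measure.

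Promoter sequences from RefSeq (build GRCm38.p6) were examined in the 250 bases before each gene start, and 9 of the 10 genes had such a window. The stretches that hold the bZIP motifs are shown because these are the letters that ATF4, CHOP and their partners are known to read. The composite motif TGATGNAA, searched on both strands, lay before Chac1 (chr2:119351023-119351082, plus strand) and Nupr1 (chr7:126625547-126625606, minus strand), and 3.45% of 32851 windows held it. The motif TGACGTCA, the palindromic cyclic AMP response element, lay before Ppp1r15a (chr7:45526269-45526328, minus strand) and in 1.55% of all windows. The AP-1 motif TGANTCA lay before Ddit3 (chr10:127290543-127290602, plus strand) and in 6.75% of all windows. Each line reads 5′ to 3′ on the gene's strand, and the capitals mark the motif, which for Chac1 and Nupr1 is the reverse complement of the letters searched.
Chac1: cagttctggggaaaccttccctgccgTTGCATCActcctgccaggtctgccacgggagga
Nupr1: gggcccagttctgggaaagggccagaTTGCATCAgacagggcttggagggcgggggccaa
Ppp1r15a: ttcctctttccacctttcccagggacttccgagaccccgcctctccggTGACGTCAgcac
Ddit3: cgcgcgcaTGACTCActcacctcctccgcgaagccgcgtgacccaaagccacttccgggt
The heat shock element was in none of the members' windows and in 0.466% of all windows, and CCAAT was before 6 of the 9 genes and in 33.8% of all windows. A match describes these letters and is not a measured binding site.

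Values are FPKM, fragments scaled by the transcript's length and by the library's mapped fragments, given for each sample and as mean ± SD (n = 3). Each sample had 22414 to 23340 genes above 0, and read depth is unknown. Log2 fold changes are MWA+2DG minus MWA+PBS on the log2(FPKM + 1) scale, with the standard error from limma. Adding 1 makes the change of weakly expressed genes look smaller than it is. A gene was called at a Benjamini-Hochberg adjusted p under 0.05 over the 12444 genes with a mean FPKM of at least 1. Of the 10 members, 7 passed this filter and 3, Nupr1, Trib3 and Chac1, did not. Of the 7, 5 were lower in the MWA+2DG group (Ppp1r15a, Sesn2, Eif4ebp1, Atf4 and Cebpg), none was higher, and Atf5 and Ddit3 were not called. Among all tested genes 39.4% were called, 17.1% as lower and 22.3% as higher. The median log2 fold change was -0.42 over the 7 members and 0.05 over all tested genes. Scaling each sample to 20 T lineage genes moved that median of all tested genes to -0.33. It called 61.3% of all genes then tested lower, and 6 of the 7 members, Atf5 in addition.

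The study's methods took the CD8+ T cells from the spleen with an isolation kit, a step meant to remove other cells. Markers of other cell types were detected beside those of T cells and differed between the groups. The 20 T lineage genes summed to between 2244 and 2403 FPKM in the MWA+PBS samples and between 3167 and 3408 FPKM in the MWA+2DG samples, with 18 of the 20 called higher, a mean log2 fold change of 0.44 and Cd2 (0.69) and Cd8a (0.66) in front. Of 21 tested monocyte and macrophage markers 20 were lower, with Hmox1 (-2.99) and C1qb (-2.78) in front, and Lyz2 (0.41, or -0.03 and not called when scaled to T lineage genes) was higher. Their median was -2.53, and the whole list summed to between 1381 and 1467 FPKM against between 396.3 and 435.7 FPKM. Of 14 neutrophil markers 12 were higher, with S100a9 (4.65) and S100a8 (4.50) in front, and Il1b (-0.46) was lower. Their median was 3.91, and the list summed to 75.0 to 101.2 FPKM and 1623 to 1807.

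B cell markers summed to 16.2 to 17.9 FPKM and 67.4 to 72.6, with a median of 1.67, 11 of 12 tested markers higher (Cd79a at 2.60 in front) and Bank1 (-0.73) lower. Erythroid markers summed to 347.4 to 403.8 and 106.9 to 123.4, with a median of -1.28 and 12 of 13 lower, Hba-a1 (-2.17) and Hba-a2 (-2.09) in front. Plasma cell markers summed to 81.9 to 90.3 and 43.7 to 46.6, with a median of 0.06 over 5 tested, of which Jchain (-1.30) and Xbp1 (-0.53) were lower and Irf4 (0.40, or 0.06 and not called when scaled to T lineage genes) was higher. The 3 tested dendritic cell markers were lower, with a median of -1.0, Flt3 at -1.23 and Itgax at -1.0 in front. Of 5 tested natural killer cell markers 3 were lower, with Fcer1g (-1.76) and Tyrobp (-1.32) in front, and Eomes (0.97) was higher, with a median of -0.35. Of 7 tested CD4 T cell markers Zbtb7b (-0.51) and Cd4 (-0.50) were lower and none was higher, with a median of 0.09.

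None of these markers was at 0 in all 6 samples. Of 18 tested heat shock and immediate early genes 15 were lower and 1, Btg2 (0.25), was higher, where 17.1% of all tested genes were lower and 22.3% higher. Their median log2 fold change was -1.52. Scaling to T lineage genes called 18 of 18 lower, Btg2 at -0.18, where it called 61.3% of all genes lower. All of these lists were measured between the same groups as the members, and their part in the results was not tested. In such bulk samples, fewer cells of a type and less RNA per cell cannot be told apart.

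**Figure D1:**
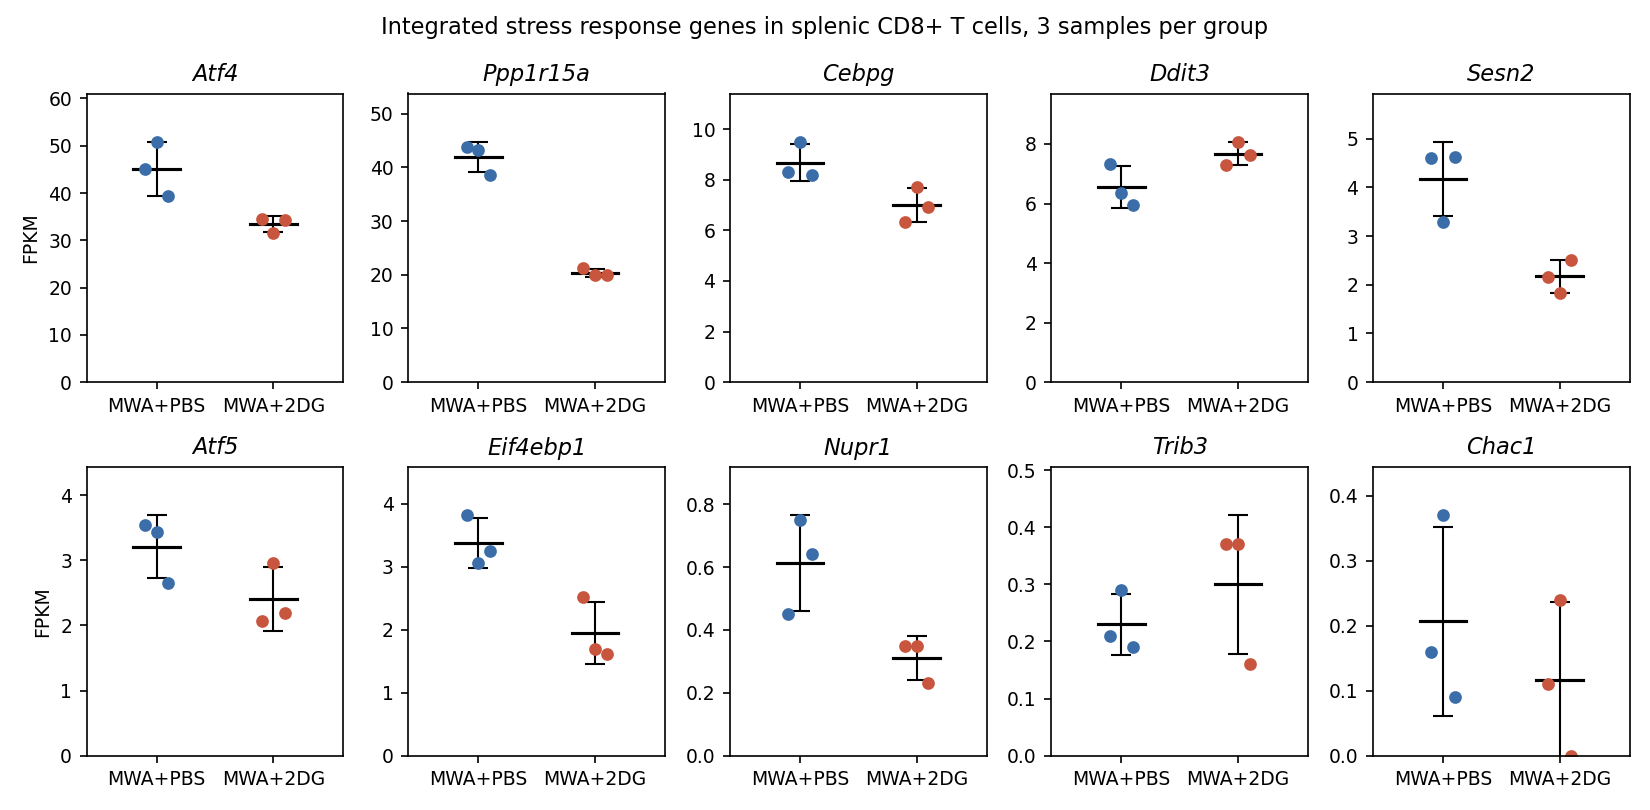
FPKM of each member (vertical axes, linear from 0, a different range in each panel) in the 3 MWA+PBS and 3 MWA+2DG samples, with points for samples, horizontal lines for means and bars for SD (n = 3), cut at 0 for Chac1. The groups did not overlap for Atf4, Ppp1r15a, Cebpg, Sesn2, Eif4ebp1 and Nupr1, all lower in MWA+2DG, and overlapped for Ddit3, Atf5, Trib3 and Chac1.

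Atf4 (ENSMUSG00000042406), the central transcription factor of the response, had 45.14, 50.87 and 39.41 FPKM in MWA+PBS and 34.42, 31.45 and 34.39 in MWA+2DG. Every MWA+2DG sample lay under every MWA+PBS sample. The means were 45.1 ± 5.73 and 33.4 ± 1.71 FPKM, a log2 fold change of -0.42 ± 0.09 with a limma adjusted p of 0.0103. Of all tested genes, 11.5% had a more negative fold change. The call was kept under all 15 alternatives, with log2 fold changes from -0.84 to -0.33.

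Atf5 (ENSMUSG00000038539), a relative of ATF4 that is also controlled by upstream open reading frames, had 3.54, 3.43 and 2.65 FPKM in MWA+PBS and 2.06, 2.96 and 2.19 in MWA+2DG. MWA+2DG replicate 5 lay above MWA+PBS replicate 3, so the groups overlapped. Its log2 fold change was -0.31 ± 0.13 with a limma adjusted p of 0.0986, which did not pass the threshold. It was called without MWA+2DG replicate 5, at -0.42 with an adjusted p of 0.0377, and with arrayWeights, which weights samples by their fit, at -0.40 with an adjusted p of 0.020. Its exons share 82 bases with those of Nup62 on the opposite strand, which had between 16.2 and 19.2 FPKM in the MWA+PBS samples and between 13.5 and 14.1 FPKM in the MWA+2DG samples.

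Cebpg (ENSMUSG00000056216), a C/EBP factor that binds DNA with ATF4, had 8.30, 9.51 and 8.19 FPKM in MWA+PBS and 6.35, 7.70 and 6.93 in MWA+2DG. The groups were apart by a narrow gap, between 7.70 and 8.19 FPKM. The means were 8.67 ± 0.732 and 6.99 ± 0.677 FPKM, with a log2 fold change of -0.27 ± 0.09 and a limma adjusted p of 0.0384. This call was lost when MWA+PBS replicate 1, 2 or 3 was left out (adjusted p of 0.0689, 0.0848 and 0.0517) or MWA+2DG replicate 4 or 6 (0.122 and 0.0964), and without the filter on low values (0.0797). Scaled to T lineage genes it was -0.66 with an adjusted p of 0.000559. Its exons share 73 bases with Gm44836 on the same strand, which had between 1.44 and 2.65 FPKM in all 6 samples.

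Ddit3 (ENSMUSG00000025408) encodes CHOP, the C/EBP-like factor linked to death under prolonged stress. It had 7.32, 6.35 and 5.95 FPKM in MWA+PBS and 7.30, 8.08 and 7.64 in MWA+2DG. The means were 6.54 ± 0.704 and 7.67 ± 0.391 FPKM, but MWA+PBS replicate 1 lay above MWA+2DG replicate 4. The log2 fold change was 0.21 ± 0.08 with a limma adjusted p of 0.0844, not called. Without MWA+PBS replicate 1 it was 0.28 with an adjusted p of 0.0385. Scaled to the T lineage genes it was -0.18 (adjusted p of 0.0893), whereas under the other 3 scalings it stayed between 0.16 and 0.20. In GENCODE M21 its exons share 105 bases on the same strand with another gene entry of the same name, which was not analysed here. They also share 68 bases with those of Mars on the opposite strand (between 12.1 and 13.2 FPKM in the MWA+PBS samples and between 12.6 and 14.2 FPKM in the MWA+2DG samples), and it is not stated in the sources used here whether fragments were assigned by strand.

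Of the feedback and effector genes, Ppp1r15a differed most among the 7 tested members. Ppp1r15a (ENSMUSG00000040435), or GADD34, brings protein phosphatase 1 to eIF2 and so ends the response, and it had 43.84, 43.32 and 38.65 FPKM in MWA+PBS and 21.17, 19.87 and 19.92 in MWA+2DG. The level was 2.06-fold lower in the MWA+2DG group, with a wide gap between the groups. The means were 41.9 ± 2.86 and 20.3 ± 0.737 FPKM, with a log2 fold change of -1.01 ± 0.06 and a limma adjusted p of 2.76e-05. Of all tested genes, 3.84% had a more negative fold change, and the call was kept under all 15 alternatives.

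Sesn2 (ENSMUSG00000028893), a leucine sensor that restrains the growth kinase mTORC1, had 4.60, 3.29 and 4.63 FPKM in MWA+PBS and 2.16, 1.84 and 2.51 in MWA+2DG. No sample of one group reached the other. The means were 4.17 ± 0.765 and 2.17 ± 0.335 FPKM, with a log2 fold change of -0.70 ± 0.13 and a limma adjusted p of 0.00496.

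Eif4ebp1 (ENSMUSG00000031490), a repressor that holds the cap-binding protein eIF4E and that mTORC1 switches off, had 3.82, 3.06 and 3.25 FPKM in MWA+PBS and 2.52, 1.70 and 1.62 in MWA+2DG. The 3 MWA+2DG samples were again under all MWA+PBS samples. The means were 3.38 ± 0.396 and 1.95 ± 0.498 FPKM, with a log2 fold change of -0.58 ± 0.13 and a limma adjusted p of 0.0112. Both this call and that of Sesn2 were kept under all 14 alternatives in which they were tested, with log2 fold changes from -0.89 to -0.50 for Eif4ebp1 and from -1.03 to -0.62 for Sesn2.

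The remaining members were near the lower end of what the files resolve. Nupr1 (ENSMUSG00000030717), a small stress-induced chromatin protein, had 0.45, 0.75 and 0.64 FPKM in MWA+PBS and 0.35, 0.35 and 0.23 in MWA+2DG. Its groups did not overlap, but it was under the filter, and in the fit without the filter its log2 fold change of -0.30 had a limma adjusted p of 0.0780. Trib3 (ENSMUSG00000032715), a pseudokinase that feeds back on ATF4 and CHOP, had 0.21, 0.29 and 0.19 FPKM in MWA+PBS and 0.37, 0.37 and 0.16 in MWA+2DG. Chac1 (ENSMUSG00000027313), which breaks down glutathione, had 0.16, 0.37 and 0.09 FPKM in MWA+PBS and 0.11, 0.24 and 0.00 in MWA+2DG. The groups overlapped for Trib3 and Chac1, with limma adjusted p of 0.576 and 0.562 in the fit without the filter.

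By the threshold of the study's methods, P under 0.05 and a log fold change of more than 0.25 in size, read here as the unadjusted P and base 2, 6 of the 7 tested members were lower and none was higher, Atf5 being the addition. That threshold took 38.2% of all tested genes, 16.6% as lower and 21.6% as higher. Of all 10 members, 6 were lower with groups that did not overlap, the untested Nupr1 among them, and none was higher in this way. Of the tested genes 52.1% had groups that did not overlap, 21.9% lower and 30.2% higher. Those shares leave out genes under the filter, such as Nupr1.

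**Figure D2:**
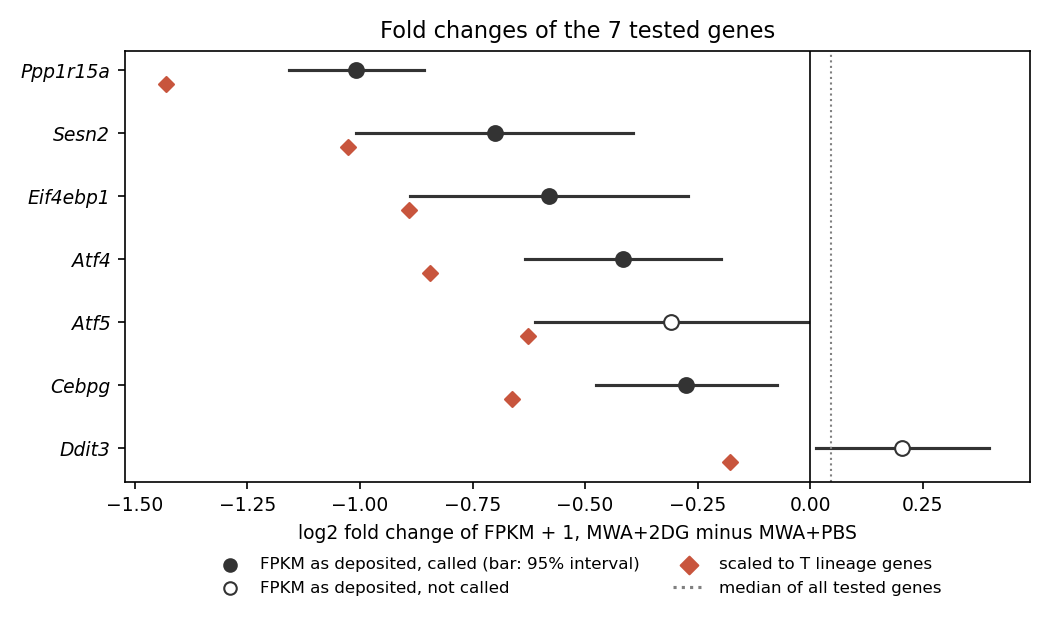
Log2 fold change of FPKM + 1 (horizontal axis, MWA+2DG minus MWA+PBS) of the 7 tested members, with circles for the deposited FPKM (filled where called, bars for the 95% interval), diamonds for values scaled to T lineage genes and a dotted line at the median of all tested genes. Ppp1r15a lay farthest to the left at -1.01, and Ddit3 alone lay right of 0 at 0.21, which the scaling turned to -0.18.

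The order of the levels differed between the groups. In MWA+PBS, Atf4 and Ppp1r15a were highest and overlapped in their ranges, followed by Cebpg and Ddit3, which did not overlap. In MWA+2DG, Atf4 stood above Ppp1r15a with no overlap, and Ddit3 and Cebpg overlapped. Sesn2, Eif4ebp1 and Atf5 overlapped whichever of the 3 stood next in the order, in both groups. Trib3 and Chac1 were last in both groups and overlapped each other.

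Levels relative to Atf4 within a sample, chosen after the values were seen, are given as a description. Ppp1r15a was 0.971, 0.852 and 0.981 times the Atf4 level in MWA+PBS and 0.615, 0.632 and 0.579 times in MWA+2DG. Ddit3 was 0.162, 0.125 and 0.151 times the Atf4 level in MWA+PBS and 0.212, 0.257 and 0.222 times in MWA+2DG. These ratios do not depend on the scaling of a library, and the groups did not overlap for either gene, with Ppp1r15a lower and Ddit3 higher relative to Atf4. The ratios of Sesn2, Eif4ebp1, Cebpg and Atf5 to Atf4 overlapped between the groups.

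Members were next compared with a paralogue in the same sample, as log2 ratios of FPKM + 1, over 8 pairs. With 3 samples against 3, the two-sided exact permutation test cannot go below 0.1. Ppp1r15a over Ppp1r15b, the phosphatase subunit made without stress, had log2 ratios of 0.44, 0.51 and 0.26 in MWA+PBS and -0.46, -0.63 and -0.52 in MWA+2DG. The stress-induced subunit thus had the higher FPKM in every MWA+PBS sample and the lower in every MWA+2DG sample. The difference was -0.94, with an exact p of 0.1 and 0.267 after adjustment over the pairs.

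Ppp1r15b itself had a log2 fold change of -0.07 with a limma adjusted p of 0.333. Sesn2 over Sesn1 differed by -0.70 and Sesn2 over Sesn3 by -0.79, each without overlap and with an exact p of 0.1, adjusted to 0.267. Sesn1 and Sesn3 had log2 fold changes of 0.00 and 0.09 and were not called. Eif4ebp1 over Eif4ebp2, both repressors of cap-dependent translation, differed by -0.47 with an exact p of 0.2 and overlapping groups. For the other 4 pairs (Atf5 over Atf4, Cebpg over Cebpb, Trib3 over Trib1 and Chac1 over Chac2) the differences were 0.11, 0.02, 0.23 and -0.14, with exact p from 0.2 to 0.9. These differences depended on the pseudocount, and with 0.1 in place of 1 the differences were 0.02 for Atf5 over Atf4, 0.73 for Cebpg over Cebpb (exact p of 0.1), 0.55 for Trib3 over Trib1 and -0.62 for Chac1 over Chac2.

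**Figure D3:**
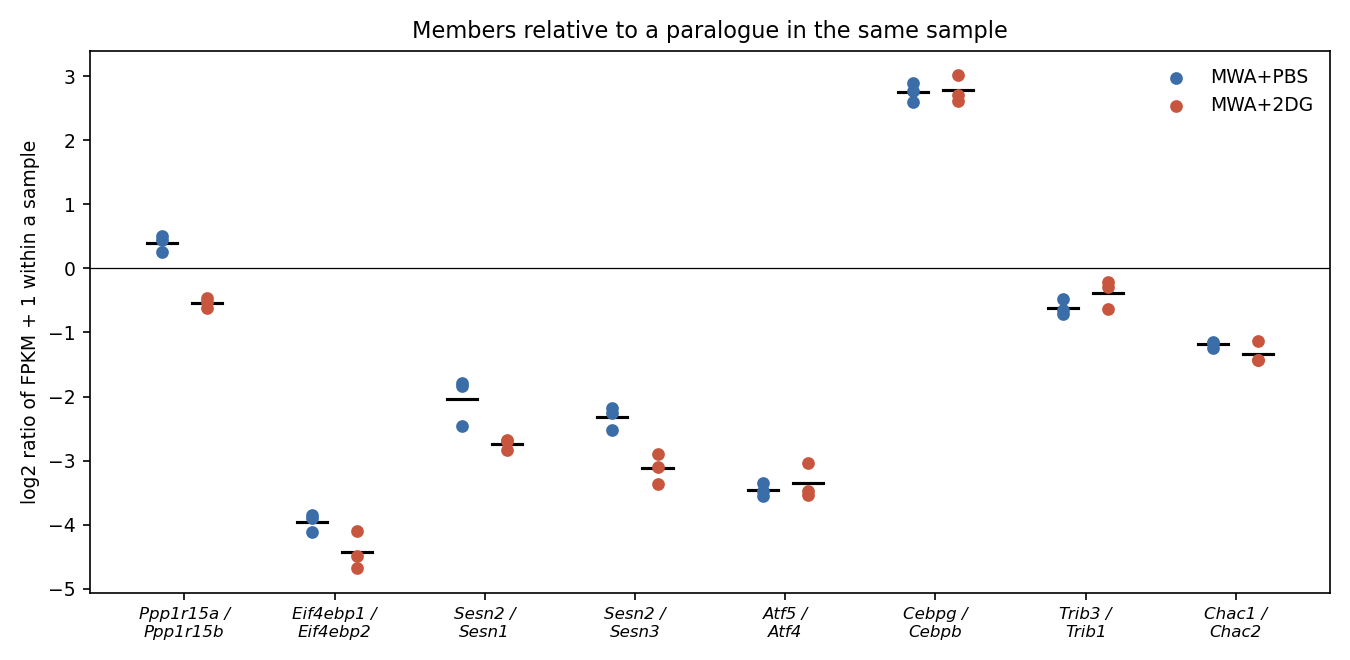
Log2 ratio of FPKM + 1 of a member over its paralogue within each sample (vertical axis), with points for the 3 samples of each group and lines for group means. The groups were apart for Ppp1r15a over Ppp1r15b and for Sesn2 over Sesn1 and Sesn3, and overlapped for the other 5 pairs.

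The steps before ATF4 were examined with a list of 9 eIF2 kinases and their regulators. On the deposited FPKM 2 of the 9 were called higher, near the 22.3% of all tested genes, and none lower, with a median of 0.08, whereas median ratio scaling called none higher and 1 lower, and scaling to T lineage genes none higher and 8 lower, where it called 61.3% of all genes lower. Those called higher were Impact, an inhibitor of GCN2 activation, at 0.24 ± 0.08 with a limma adjusted p of 0.0404, and Oma1, a mitochondrial protease that starts the DELE1 signal, at 0.20 ± 0.06 with 0.0394. Both were under 0 when scaled to T lineage genes, at -0.15 and -0.19.

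The kinases themselves, Eif2ak1 to Eif2ak4, were not called, with log2 fold changes of -0.01 for the haem-regulated HRI, 0.10 for the double-stranded RNA sensor PKR, -0.20 for the endoplasmic reticulum sensor PERK and -0.07 for the amino acid sensor GCN2. Scaled to T lineage genes, these were called lower at -0.42, -0.27, -0.58 and -0.41, where that scaling called 61.3% of all genes lower. A list of 15 genes covered eIF2, its exchange factor eIF2B, related initiation factors and phosphatase subunits. Of these, 1 was called higher and none lower, where 22.3% of all tested genes were higher and 17.1% lower. The median of the list was -0.01. The gene called higher was Mcts1, a reinitiation factor, at 0.39 ± 0.12 with a limma adjusted p of 0.0333. It was at -0.03 when scaled to T lineage genes. Median ratio scaling called none of the 15 higher or lower. T lineage scaling called 14 lower, where it called 61.3% of all genes lower.

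Of 14 paralogues of the members 10 were tested, with a median of 0.00. Of these, 2 were called higher and 1 lower, where 22.3% of all tested genes were higher and 17.1% lower. Median ratio scaling called 1 higher and 1 lower. T lineage scaling called 1 higher and 9 lower of 11, where it called 61.3% of all genes lower. Cebpe, a factor of granulocyte development, had 1.62, 1.53 and 1.18 FPKM in MWA+PBS and 4.38, 4.70 and 4.10 in MWA+2DG, and its log2 fold change was 1.15 ± 0.10 with a limma adjusted p of 0.000108. Cebpa, a myeloid factor, had 5.96, 4.19 and 5.09 FPKM and 0.80, 0.67 and 0.63, a log2 fold change of -1.83 ± 0.12 with 3.09e-05. Trib2 was called at 0.18 ± 0.05 with 0.0164 and was at -0.24 when scaled to T lineage genes. Of the neutrophil markers 12 of 14 were higher and of the macrophage markers 20 of 21 were lower between the same groups, and their part in the values of Cebpe and Cebpa was not tested.

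Of 15 tested bZIP factors with which ATF4 and CHOP can pair or interact, 10 were called lower and none higher, with a median of -0.54, where 17.1% of all tested genes were lower. Scaling to T lineage genes called 16 of 16 lower, where it called 61.3% of all genes lower. Jun had 79.91, 74.77 and 74.21 FPKM in MWA+PBS and 8.54, 7.19 and 6.97 in MWA+2DG, and its log2 fold change was -3.18 ± 0.08 with a limma adjusted p of 3.56e-07. Fos had 108.02, 104.43 and 96.45 FPKM and 16.30, 15.06 and 16.08, a log2 fold change of -2.63 ± 0.06 with 2.69e-07. Jun and Fos are immediate early genes, a class that with the heat shock genes had 15 of 18 tested genes lower, both among them. The part of that class in these values was not tested. Of the factors called lower, Junb is in that class too, Atf6 and Xbp1 are also in the ATF6 and XBP1 arms, and Cebpa is also a paralogue. These lists thus share genes and are not separate counts.

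Of 36 other ATF4 targets 35 were in the files and 26 were tested. Of these, 11 were called lower, where 17.1% of all tested genes were, and 1 higher, with a median of -0.21, whereas median ratio scaling called 12 lower and none higher and scaling to T lineage genes 24 lower and none higher (61.3% of all genes lower). Among the amino acid genes, the synthesis enzymes Asns (-0.44 ± 0.11, limma adjusted p of 0.0137) and Psat1 (-0.34 ± 0.08, 0.0142) were lower. The amino acid transporter genes Slc7a5 (-0.36 ± 0.10, 0.0227), Slc3a2 (-0.51 ± 0.06, 0.000444) and Slc38a2 (-0.48 ± 0.06, 0.000671) were lower too, and Slc1a5 (-0.23 ± 0.09, 0.0711) and Slc7a1 (-0.06 ± 0.07, 0.517) were not called. Phgdh, Psph, Shmt2, Mthfd2 and Aldh18a1, which make serine, one-carbon units and proline, were not called, with log2 fold changes between -0.10 and 0.02.

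Among the tested genes of that list, the largest decreases on the log2(FPKM + 1) scale were those of Hmox1, which degrades haem, and Pmaip1, which encodes the death protein NOXA. Hmox1 had 229.18, 211.17 and 223.24 FPKM in MWA+PBS and 27.45, 25.17 and 28.09 in MWA+2DG, and its log2 fold change was -2.99 ± 0.06 with a limma adjusted p of 1.87e-07. Hmox1 is also in the macrophage list, which fell, and that part of its value was not tested. Pmaip1 had 6.46, 7.58 and 5.69 FPKM and 2.62, 2.59 and 3.12, a log2 fold change of -1.0 ± 0.11 with 0.000334. Fbxo32, a ubiquitin ligase subunit, was called higher at 0.24 ± 0.07 with 0.0305, a call lost with median ratio scaling, and was at -0.11 when scaled to T lineage genes.

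The 20 cytosolic aminoacyl-tRNA synthetases, many of which ATF4 can raise, had a median of 0.03. Sars and Wars were called higher, each at 0.19 ± 0.06 (limma adjusted p of 0.0418 and 0.0442), and none was lower. Calls were thus 2 of 20 in this list, against 39.4% of all tested genes. Median ratio scaling called none higher and 2 lower, where it called 2324 genes higher and 2468 lower of 12445. T lineage scaling called none higher and 19 lower, where it called 61.3% of all genes lower.

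**Figure D4:**
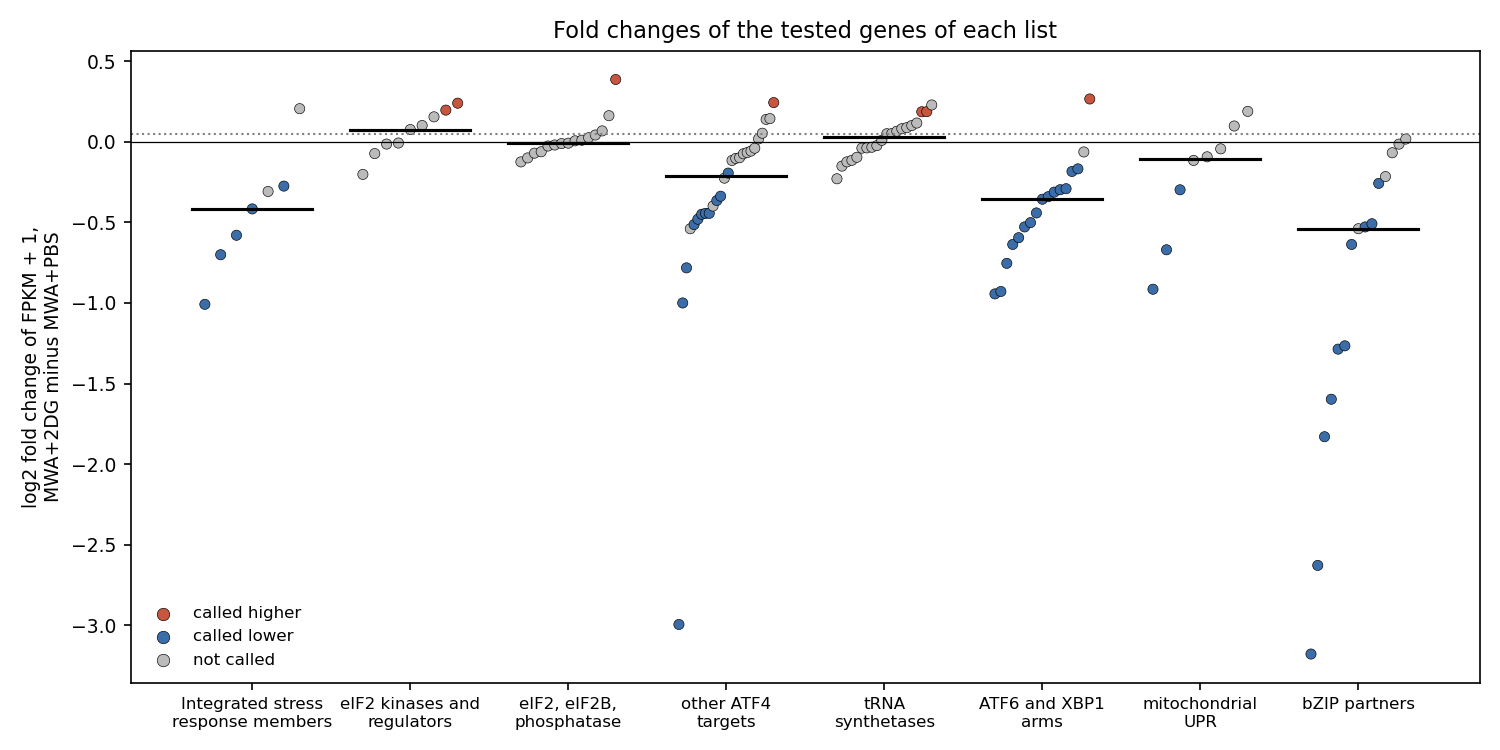
Log2 fold change of FPKM + 1 (vertical axis, MWA+2DG minus MWA+PBS) of each tested gene of 8 lists, colored by the call, with lines for list medians and a dotted line for the median of all tested genes. Medians were near 0 for the eIF2 lists and the tRNA synthetases and under -0.3 for the members, the ATF6 and XBP1 arms and the bZIP partners.

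Of 17 genes of the ATF6 and XBP1 arms 15 were called lower and 1 higher, with a median of -0.36, where 17.1% of all tested genes were lower. Median ratio scaling gave the same counts, and T lineage scaling called 17 of 17 lower, where it called 61.3% of all genes lower. Sdf2l1, an endoplasmic reticulum co-chaperone, was at -0.94 ± 0.10 (limma adjusted p of 0.000329) and Ern1, which encodes the sensor IRE1, at -0.93 ± 0.07 (7.87e-05). Edem1, which directs misfolded glycoproteins to degradation, was higher at 0.27 ± 0.05 (0.00530), and scaled to T lineage genes it was at -0.16. Xbp1 is also among the plasma cell markers, which summed to 81.9 to 90.3 FPKM and 43.7 to 46.6 with 2 of 5 tested lower (Jchain and Xbp1), 1 higher (Irf4) and a median of 0.06, and their part in these values was not tested. Of 8 genes of the mitochondrial unfolded protein response 3 were lower and none higher, among them the chaperonin genes Hspd1 at -0.91 ± 0.07 (5.11e-05) and Hspe1 at -0.67 ± 0.08 (0.000738). Scaling to T lineage genes called 8 of the 8 lower, against the same 61.3%. The heat shock genes Hspa1b and Hspa1a were at -5.64 and -5.34, and their part in these values was not tested.

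The genes whose profiles over the 6 samples were most like that of Atf4, by the root mean square distance between gene-centred log2(FPKM + 1) values, were Cct7 (0.0412), Ndrg1 (0.0425) and Prdx1 (0.0456). For Ppp1r15a they were Bex6 (0.0362), Stmn1 (0.0511) and Entpd1 (0.0529). Their log2 fold changes were -0.43, -0.45 and -0.41 for the genes like Atf4 and -0.97, -0.95 and -0.98 for the genes like Ppp1r15a.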

How the data were processed

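Poly(A) RNA of the 6 samples was made into strand-marked libraries with molecular identifiers. Per the methods, reads were checked with fastp, mapped with HISAT2 and quantified as FPKM with StringTie and ballgown, and the deposited files hold these FPKM values at 2 decimals. The submitters' processing notes name cutadapt 1.9, HISAT2 2.0.4, UMI-tools, StringTie 1.3.4d and the build mm9, so only promoter coordinates, on GRCm38.p6, are printed. A transcript that takes a larger share of a library lowers the FPKM of the others. No step of single reads could be found, so depth is unknown and replicates could not be compared for sampling noise on counts.

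The fit used limma 3.58.1 in R 4.3.3 (lmFit, eBayes with a trend, two-sided, no covariates) on log2(FPKM + 1) and was tested on simulated data. Symbols came from GENCODE M21. All members are named. Of the other lists, the counts, medians and up to 2 of the largest called changes in each direction are given (all called genes for the eIF2 kinases and paralogues); further genes named were chosen after their values were seen, and 1 gene that this rule takes is not reported here. For Atf4 and Ppp1r15a the 3 most similar profiles are given. Members and lists were chosen with earlier results of these data known. No batch was named in the labels, and treatment and any batch aligned with it cannot be told apart. Alternatives were another pseudocount, filter or scaling, eBayes without a trend, arrayWeights, leaving out each sample, and, added after the data were seen, division by the summed FPKM of the T lineage genes.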

Additional observations from a re-analysis of the deposited data

How the results depend on the processing

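No paired analysis was possible because the groups share no replicate numbers. All genes called numbered 4907, against 2951 at a mean FPKM of at least 5, 8256 with scaling to T lineage genes (605 higher and 7651 lower) and 3669 to 5152 when 1 sample was left out. Median ratio scaling gave 2324 higher and 2468 lower. By the threshold of the study the numbers were 4752, 2562, 7747 (549 higher and 7198 lower) and 4509 to 5030. At a mean FPKM of at least 5, 3 of 4 tested members were lower by either threshold, and leaving out 1 sample gave 4 to 6. The log2 fold changes of Ddit3 and Trib3 turned to -0.18 and -0.012 with T lineage scaling. Divided by the summed T lineage FPKM, an alternative chosen after the data were seen, the log2 ratios of group means were -0.27 for Ddit3 and -0.11 for Trib3, against 0.23 and 0.38 as deposited. The same division gave -0.94 for Atf4 and -1.55 for Ppp1r15a. With 1 sample left out, Atf5 over Atf4 ranged from -0.048 (without MWA+2DG replicate 5) to 0.20 and Cebpg over Cebpb from -0.095 (without MWA+2DG replicate 5) to 0.10, the latter also turning without MWA+PBS replicate 3 (-0.056). Trib3 over Trib1 ranged from 0.15 (without MWA+2DG replicate 5) to 0.36 (without replicate 6) and Chac1 over Chac2 from -0.24 (without MWA+2DG replicate 5) to -0.095 (without replicate 6). With a pseudocount of 0.1, Cebpg over Cebpb was 0.73, Trib3 over Trib1 0.55, Chac1 over Chac2 -0.62, Atf5 over Atf4 0.02 and Eif4ebp1 over Eif4ebp2 -0.67 (exact p of 0.1). T lineage scaling sets the mean difference of the T lineage genes to 0 by construction, and which scaling fits was not tested. Depth is unknown, which limits what can be said of Nupr1, Trib3 and Chac1, the members with the lowest levels.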
